A study of Equus caballus with 18 samples.

Results

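The HOX genes of limb muscle were examined in biopsies of the superficial gluteal muscle, a muscle of the hip, from Thoroughbred horses given clenbuterol. The members were the genes whose symbol is HOX followed by a cluster letter from A to D and a number, each read from a probeset (the probes that together report a gene) carrying that symbol alone. This gave 31 genes among 16661 genes with a symbol of their own and 30559 probesets in all. There were 7 members of HOXA, 8 of HOXB, 8 of HOXC and 8 of HOXD. Each was read by 1 probeset. Other HOX genes were not analysed here.

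Clenbuterol is a β2-adrenergic receptor agonist used in horses with airway obstruction. In the escalating dose regimen, 4 horses (E1 to E4) received 0.8, 1.6 and 2.4 μg/kg BID (bis in die) for 3 days each, then stayed on 3.2 μg/kg BID over the last 21 days, and were biopsied on day 28 and at baseline before the first dose. In the low dose regimen, 5 other horses (L1 to L5) received 0.8 μg/kg BID and were biopsied on day 14 and at baseline. All 9 were healthy adults in race-type exercise, sedated with xylazine and butorphanol for each biopsy. No horses left untreated over the same weeks were analysed here, so the drug and the time in the study cannot be told apart. The regimens differed in dose, day and horses together.

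HOX proteins are homeodomain transcription factors that give embryonic tissues their position along the head to tail axis and along the limb. Their genes lie side by side in clusters, and a gene's number follows its place in the cluster: low numbers act towards the head, high numbers towards the tail and the tip of the limb. Adult connective tissue and muscle keep a HOX pattern that reflects where they formed in the embryo. HOX proteins bind DNA together with PBX and MEIS partners, and Polycomb and Trithorax proteins hold the clusters silent or active.

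The arrays reported log2 signal, and a difference of 1 on this scale is a doubling or halving. The array medians lay between 4.45 and 4.50 on day 28 of the escalating dose, against 4.06 to 4.22 at its baseline. They lay between 2.42 and 2.74 on day 14 of the low dose, against 2.50 to 2.69 at its baseline. Levels were therefore not set across the regimens as log2 values but as percentiles among all probesets of the same array. On day 28 the values of an array were also less spread (SD 1.49 to 1.53) than at baseline (SD 1.71 to 1.80). The scale of an array and the day therefore cannot be told apart at the escalating dose. Arrays of horses L4 and L5 stood apart from those of L1 to L3 with lower spread (SD 1.20 to 1.41, against 1.67 to 1.75), and their summed signal of 6 muscle fiber genes was 11.87 to 13.41, against 13.70 to 14.09 (log2). The fiber markers of skeletal muscle, such as ACTA1 and CKM, were bright on every array, with summed signal between 14.41 and 14.70 in the escalating dose horses. The baseline biopsies of E1 and E4 stood apart from those of E2 and E3 in the summed signal of 5 adipocyte markers (11.25 and 11.33 in E1 and E4, 7.80 and 8.19 in E2 and E3) and of 6 skin epithelium markers (7.51 and 7.67 in E1 and E4, 5.91 and 5.80 in E2 and E3).

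At baseline the HOX genes as a whole sat in the middle of the array. Their median was at the 49.0th percentile in the escalating dose horses and at the 51.5th in the low dose horses. A probeset's signal also depends on how well its probes bind, so the order of genes given here is an order of signal and was not tested. The brightest was HOXD8, a gene from the middle of the HOXD cluster, at the 93.9th percentile (median of 4 horses) and the 93.4th (median of 5 horses). HOXA6 followed at 81.4 and 81.6, HOXC10 at 79.9 and 84.0, and HOXA10 at 79.8 and 77.6. HOXC10 and HOXA10 belong to a paralog group that patterns the upper hindlimb and lumbar region in the mouse. HOXD9 stood just over the 75th percentile and at 77.3, HOXC6 at 72.7 and 73.0 and HOXA7 at 77.1 and 64.6.

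The dim end of the family was alike in both sets of horses. HOXC4 was at the 14.1th and 31.9th percentile, HOXD13, a gene of digit formation, at 19.4 and 28.8, HOXD1 at 21.7 and 28.4, HOXB5 at 23.3 and 29.0 and HOXA9 at 25.5 and 27.6. No member of HOXB and no gene numbered 1 to 4 had a median above the 75th percentile in either set, whereas 6 members passed that mark in each. A few genes stood apart between the sets. HOXC13, known for its part in hair and nail formation, was at 46.1 in the escalating dose horses and 78.5 in the low dose horses, and HOXC5 at 20.5 and 59.6.

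**Figure D1:**
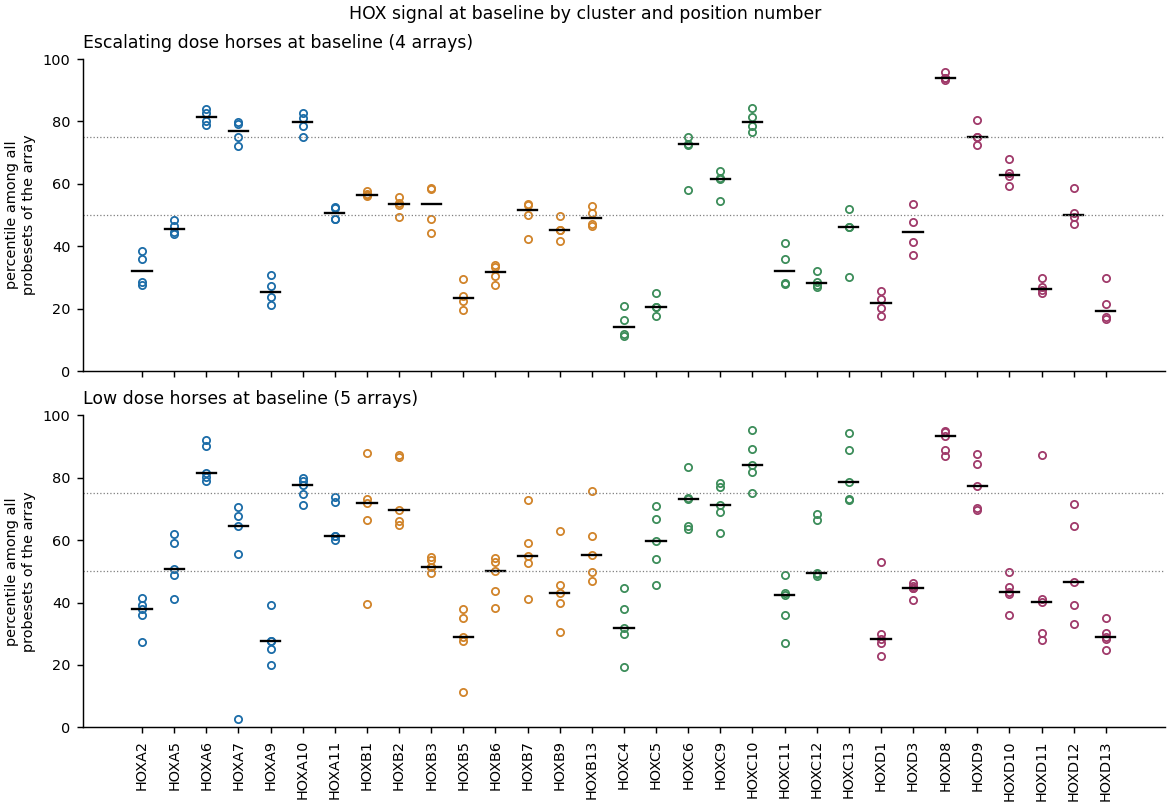
Baseline signal of the 31 HOX genes as a percentile among all probesets of the same array (vertical axis), ordered by cluster and position number. Circles are horses (4 above, 5 below), the short black lines are medians, and dotted lines mark the 50th and 75th percentiles: HOXD8 lay above all other members by median in both panels, at 93.9 and 93.4.

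On day 28 of the escalating dose, 9 HOX genes were lower than at baseline and 0 were higher at an adjusted p under 0.05, and 22 were not called. The fall was deepest in HOXD8, at 9.80-fold, followed by HOXA7, HOXC10, HOXA10, HOXC6, HOXA9, HOXD9, HOXA6 and HOXA5. Without E1 and E4, 7 were lower, and HOXA6 and HOXA5 were the genes that lost their call. Among all probesets 20.2% were called lower, 24.5% higher and 44.7% in either direction. Among all genes with a symbol of their own 28.4% were lower and 21.9% higher, so that 29.0% of HOX genes being lower was close to the share of genes in general. That comparison depended on how the arrays were scaled. After quantile normalization, median centring or cyclic loess of the 8 arrays, 15, 17 or 14 HOX genes were lower and 0 higher (48.4%, 54.8% or 45.2% lower), against 32.8%, 42.8% or 25.0% of all such genes. The same scalings moved the median change of all probesets to -0.10, -0.24 or -0.02, against 0.08 as deposited, and the calls among all probesets to 5790 higher and 7321 lower, 4965 and 10038, or 6745 and 5643, against 7498 and 6164 as deposited. The median change of the 31 genes was -0.14, against 0.08 for all probesets and -0.03 for all such genes. The change was below 0 in 26 of the 31, in 43.9% of all probesets and in 52.3% of all such genes. After quantile normalization, median centring or cyclic loess it was below 0 in all 31. So it was then in 10864, 11943 or 9796 of the 16661 genes with a symbol of their own. Each horse had a HOX median below that of its own array, with -0.25, -0.20, -0.15 and -0.33 in E1 to E4, against 0.00, 0.10, 0.15 and 0.01 for all probesets. Tests were two-sided in limma with horse as a block, and Benjamini-Hochberg adjustment covered every probeset in the fit.

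HOXD8 was at 4.52, 4.14, 4.28 and 4.34 on day 28 in E1 to E4, against 7.36, 8.02, 7.62 and 7.45 at baseline. All day 28 arrays lay far below all baseline arrays. The log2 change was -3.29 (SE 0.20, n = 4 horses, limma adjusted p = 7.4e-05). Only 6 of the 16661 genes had a lower change. The gene was at percentiles 39.4 to 51.9 on day 28, against 93.4 to 95.8 at baseline, so that the brightest member at baseline was among the middle signals of the array on day 28. Its neighbour HOXD9 was at 4.94, 4.88, 4.76 and 4.32 on day 28, against 5.29, 5.87, 5.44 and 5.46 at baseline. The groups did not overlap, and the change was -0.79 (SE 0.17). The next gene along, HOXD10, was at 4.44, 4.23, 4.28 and 4.47 on day 28, against 4.76, 5.02, 4.48 and 4.83 at baseline. Its arrays did not overlap either, but the change of -0.42 (SE 0.16) missed the threshold (limma adjusted p = 0.067). HOXD10 was called lower after quantile normalization, median centring or cyclic loess (limma adjusted p = 0.0082 to 0.018). The arrays did not overlap for 10 of the 31 HOX genes, in each with day 28 lower, and for 43.8% of all probesets, with day 28 lower in 19.7% of all probesets. This share was not taken among genes with a symbol of their own, of which 28.4% were called lower, against 20.2% of all probesets. The remaining HOXD genes, from HOXD1 and HOXD3 at the head end to HOXD11, HOXD12 and HOXD13 at the tail end, changed by -0.14 to 0.04 and were not called. HOXD12 was called lower after quantile normalization (-0.45), median centring (-0.43) or cyclic loess (-0.45; limma adjusted p = 0.038 to 0.040). HOXD1 was called lower after quantile normalization (-0.43) or median centring (-0.44; limma adjusted p = 0.042 and 0.037).

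In HOXA, 5 of 7 genes were lower, and these were all of the measured genes from HOXA5 to HOXA10. HOXA7 was at 3.76, 3.65, 3.61 and 3.80 on day 28, against 5.26, 5.44, 5.82 and 5.76 at baseline. Day 28 values were tightly grouped and all below baseline, with a change of -1.87 (SE 0.16, n = 4 horses, limma adjusted p = 0.00019), which is 3.64-fold. HOXA10 was at 4.56, 4.47, 4.78 and 4.92 on day 28, against 5.44, 6.04, 5.94 and 5.70 at baseline, a change of -1.10 (SE 0.17). HOXA9, a gene of blood-forming progenitors in mouse and human, was dim throughout, with 2.33, 2.13, 2.08 and 2.36 on day 28, against 3.32, 3.34, 2.91 and 3.13 at baseline. It was lower in every horse, by -0.95 (SE 0.15).

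The shallower falls in HOXA were at HOXA6 and HOXA5. HOXA6 was at 4.36, 5.57, 5.61 and 5.39 on day 28, against 5.71, 6.05, 5.85 and 6.13 at baseline. E1 moved most, by -1.35, and E3 least, by -0.24, and the mean change of -0.70 (SE 0.20, limma adjusted p = 0.028) lost its call without E1 (limma adjusted p = 0.084), without E2 (0.057) and without E4 (0.077), and also after quantile normalization (0.11) or cyclic loess (0.24). HOXA5, which shapes the lung and upper trunk in the mouse, was at 3.50, 3.32, 3.38 and 3.43 on day 28, against 4.14, 3.97, 3.81 and 3.99 at baseline, a change of -0.57 (SE 0.14, limma adjusted p = 0.012) that lost its call without E2 (limma adjusted p = 0.052). The genes on either side were not called: HOXA2, of hindbrain and branchial arch, changed by -0.18 (SE 0.15), and HOXA11, of the lower limb segment, by -0.04 (SE 0.18). HOXA2 was called lower after quantile normalization (-0.56), median centring (-0.51) or cyclic loess (-0.53; limma adjusted p = 0.019 to 0.025), so the border at HOXA5 held only for the values as deposited, and HOXA11 was not called under any of these scalings.

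In HOXC, 2 of 8 genes were lower. HOXC10 was at 4.56, 4.75, 4.86 and 4.70 on day 28, against 5.54, 5.93, 6.26 and 5.70 at baseline. Every horse was lower by at least 0.98, and the change was -1.14 (SE 0.15, n = 4 horses, limma adjusted p = 0.00080). HOXC6 was at 4.02, 4.36, 4.06 and 3.84 on day 28, against 5.30, 5.29, 5.44 and 4.58 at baseline, a change of -1.08 (SE 0.16). Horse E4 had the lowest HOXC6 on both days, and its baseline still lay above all day 28 arrays. HOXC11 was lower in every horse, by -0.32 (SE 0.13), and was not called (limma adjusted p = 0.088). It was called lower after quantile normalization (-0.68), median centring (-0.65) or cyclic loess (-0.65; limma adjusted p = 0.0071 to 0.0081) and in the methods' paired test. HOXC12 was the only member higher in every horse, by 0.05 to 0.12, and was not called in limma (mean 0.10, SE 0.13). The methods' paired test called HOXC12 higher, and its change was below 0 after quantile normalization, median centring or cyclic loess (-0.30, -0.23 or -0.25). HOXC4, HOXC5, HOXC9 and HOXC13 changed by -0.22 to -0.03 and were not called. HOXC4 was called lower after median centring (-0.54, limma adjusted p = 0.016).

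In HOXB, 0 of 8 genes were called, and 2 were lower at an unadjusted p under 0.05, as were 22.9% of all probesets. HOXB3, a hindbrain and neck gene, was at 3.23, 3.90, 3.79 and 3.73 on day 28, against 4.58, 4.07, 3.82 and 4.61 at baseline. E1 and E4 moved by -1.35 and -0.88 and E2 and E3 by -0.17 and -0.03, and the groups overlapped (change -0.61, SE 0.24, limma adjusted p = 0.081). E1 and E4 were also the horses with high adipocyte and skin markers at baseline, and without them the change was -0.10 (limma adjusted p = 0.75). The part of those markers in the HOXB3 values was not tested. HOXB5 was lower in every horse, by -0.34 (SE 0.13, limma adjusted p = 0.082). Both were called lower after each of the 3 other scalings (limma adjusted p = 0.0059 to 0.012). The other 6, HOXB1, HOXB2, HOXB6, HOXB7, HOXB9 and HOXB13, changed by -0.06 to 0.18.

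**Figure D2:**
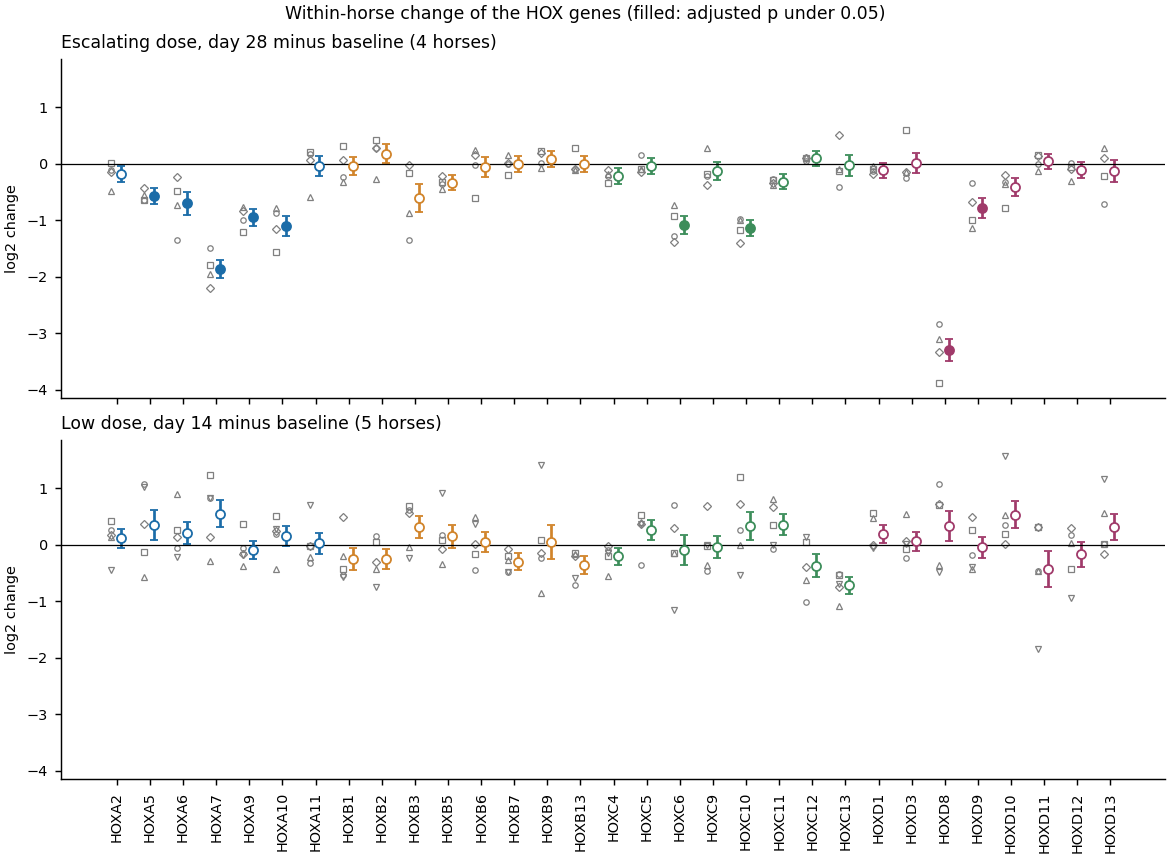
Within-horse log2 change of the 31 HOX genes in cluster order, for the escalating dose (day 28 minus baseline, above) and the low dose (day 14 minus baseline, below). Grey symbols are horses, coloured circles are the fitted mean with its SE, and filled circles had an adjusted p under 0.05: 9 genes, all below 0, in the upper panel and 0 in the lower.

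Read by position number across the clusters, the called genes all lay in the middle: 9 of 16 genes numbered 5 to 10 were lower (median change -0.64), against 0 of 7 numbered 1 to 4 (median -0.11) and 0 of 8 numbered 11 to 13 (median -0.03). These ranges were drawn after the values were seen, and the border moved with the scaling: after quantile normalization, median centring or cyclic loess 3, 4 or 2 genes numbered 1 to 4 were lower, 2, 2 or 2 numbered 11 to 13, and 10, 11 or 10 numbered 5 to 10. Within a number the changes can be read side by side, and differences between clusters were not tested. At position 10, HOXA10 changed by -1.10, HOXC10 by -1.14 and HOXD10 by -0.42. At position 9, HOXA9 and HOXD9 changed by -0.95 and -0.79, and HOXB9 and HOXC9 by 0.09 and -0.13. At position 7, HOXA7 changed by -1.87 and HOXB7 by -0.01.

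The fall also followed the signal. All 6 members whose baseline median passed the 75th percentile (HOXD8, HOXA6, HOXC10, HOXA10, HOXA7 and HOXD9) were lower, with a median change of -1.12, while 3 of the other 25 were lower, with a median of -0.11. Bright genes were often lower in general: 73.8% of the genes above that percentile were called lower, against 8.50% of the rest. After quantile normalization, median centring or cyclic loess, 5, 6 or 5 of the 6 bright members were lower (median -1.13, -1.44 or -0.97). Of the other 25 members, 10, 11 or 9 were then lower (median -0.42, -0.43 or -0.37). The baseline arrays enter both the percentile and the change. To set each gene beside probesets of like signal, all probesets were ordered by their mean over the 8 arrays and split into 10 equal groups. The change of each of the 31 HOX genes was below the median of its own group, by 0.37 at the median, by 2.77 for HOXD8 and by 0.005 for HOXB2. Among all genes with a symbol of their own, 57.3% were below, and among 36 other homeobox genes 26 were. So were 13 of 14 retinoid and caudal genes and 10 of 11 genes of the Trithorax list described further on, as well as 8 of 9 fibroblast and 6 of 6 smooth muscle and pericyte markers. Under each of the 3 other scalings all 31 HOX genes again lay below the median of their group. This is a description without a test.

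**Figure D3:**
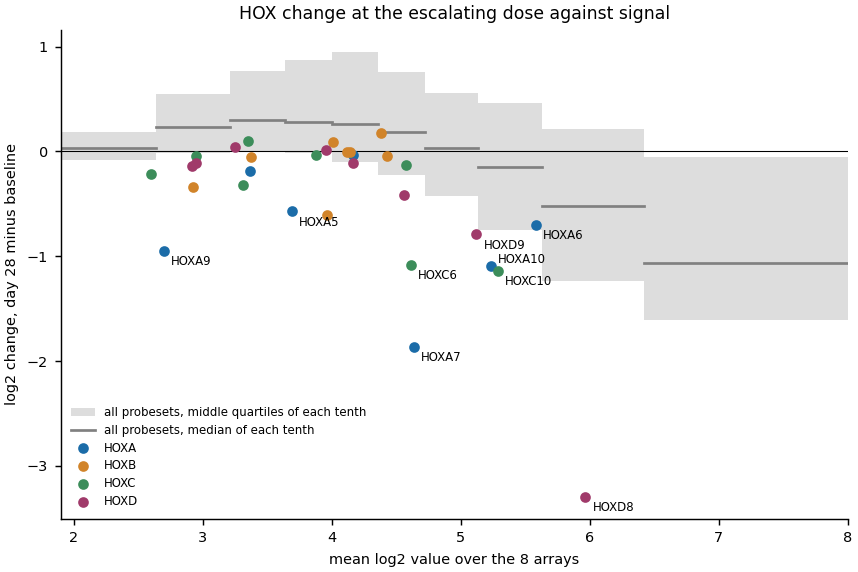
Change on day 28 of the escalating dose (vertical axis, log2) against the mean log2 signal over the 8 arrays (horizontal axis) for the 31 HOX genes, coloured by cluster, with the 9 called genes named. Grey lines and bands are the median and the middle quartiles of all probesets in 10 groups of rising signal: every HOX gene lay below the line of its group, HOXD8 by 2.77.

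In a bulk biopsy, fewer cells of a type and less RNA per cell cannot be told apart. Markers of several non-fiber cell types were lower on day 28 together with the HOX genes. Among all genes with a symbol of their own 28.4% were lower and 21.9% higher, and 73.8% were lower among those above the 75th percentile at baseline. Above that percentile were 5 of 9 fibroblast, 6 of 6 endothelial, 3 of 6 smooth muscle and pericyte, 6 of 6 muscle fiber and 0 of 4 satellite cell markers. Of 9 connective tissue fibroblast markers 5 were called lower and 0 higher, and their summed signal was 9.11 to 9.55 on day 28, against 10.36 to 10.80 at baseline. LUM and DCN, proteoglycans of the collagen matrix, changed by -1.71 and -1.30. Of 6 endothelial markers 5 were lower (sum 7.78 to 7.94 on day 28, against 9.16 to 9.88 at baseline), as were 5 of 6 of smooth muscle and pericytes (sum 7.62 to 7.84, against 9.19 to 9.47). Of 6 muscle fiber markers 1 was lower (sum 14.41 to 14.49 on day 28, against 14.60 to 14.70 at baseline). Of 4 satellite cell markers 3 were higher (sum 6.93 to 7.13 on day 28, against 6.05 to 6.40 at baseline), among them CALCR at 1.83 and MYF5 at 0.77. Of 5 adipocyte markers 1 was lower (sum 7.48 to 7.78 on day 28, against 7.80 to 11.33 at baseline). Of 6 skin epithelium markers 3 were higher and 1, KRT1, lower (sum 6.48 to 6.79 on day 28, against 5.80 to 7.67 at baseline). Of 5 leukocyte markers 2 were higher, and the 3 Schwann cell markers held 1 call in each direction. With the arrays scaled by quantile normalization, median centring or cyclic loess, 5, 8 or 3 of the fibroblast markers and 4, 5 or 4 of the endothelial markers were lower. Of the fibroblast markers 0, 0 or 1 were then higher. Of the muscle fiber markers 2, 3 or 1 were lower and 0, 0 or 2 higher. The part of the markers in the HOX result was not tested.

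On day 14 of the low dose, 0 HOX genes were called, as were 0% of all probesets. At an unadjusted p under 0.05 there was 1 HOX gene, against 8.72% of all probesets. The methods' paired test called 0 HOX genes as well. The median change of the 31 was 0.05, against 0.01 for all probesets, and the horse medians were -0.05, 0.08, 0.13, -0.22 and -0.15 in L1 to L5. The genes that fell at the escalating dose gave mixed signs, from 0.55 for HOXA7 (SE 0.24) to -0.09 for HOXC6 (SE 0.26). The arrays of day 14 and baseline overlapped for every HOX gene, as they did for all but 0.72% of probesets.

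The gene with the unadjusted call was HOXC13. It was at 3.10, 3.11, 3.20, 3.42 and 4.47 on day 14 in L1 to L5, against 3.61, 3.64, 3.95, 4.51 and 5.17 at baseline. It was lower in all 5 horses. L4 and L5 were the highest on both days, and the groups overlapped through the day 14 value of L5 alone. The change was -0.72 (SE 0.15, adjusted p = 0.43 in limma). The summed signal of 6 skin epithelium markers was 4.47 to 5.38 on day 14 in all horses, against 9.14 to 9.59 at baseline in L1, L2 and L3 and 5.20 to 5.40 at baseline in L4 and L5. L4 and L5 were also the horses whose arrays stood apart with lower spread. The HOXC13 change was -0.51, -0.53 and -0.75 in L1, L2 and L3, and -1.09 and -0.70 in L4 and L5. The part of the skin markers and of the array spread in the HOXC13 values was not tested. HOXB7, HOXB13 and HOXC4 were also lower in all 5 horses, by -0.30 (SE 0.14), -0.36 (SE 0.16) and -0.20 (SE 0.15), and HOXD10 was higher in all 5, by 0.53 (SE 0.24), of which L5 alone gave 1.58. None of these was called (limma adjusted p = 0.57 to 0.72).

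HOXD8 split the low dose horses. It was at 6.86, 7.04, 6.93, 4.16 and 3.80 on day 14 in L1 to L5, against 5.79, 6.34, 6.21, 4.52 and 4.29 at baseline. In L1, L2 and L3 it was higher on day 14, and in L4 and L5, the arrays that stood apart, it was lower on both days than in the other 3 and lower on day 14 than at baseline. The change was 0.33 (SE 0.27, limma adjusted p = 0.75), and without L4 and L5 it was 0.83 (limma adjusted p = 0.13). HOXA7 was also lower in L4 and L5 than in the other 3 on both days, with 4.16, 4.41, 3.57, 2.55 and 2.10 on day 14, against 3.33, 3.17, 3.44, 2.84 and 1.27 at baseline. It was lower on day 14 than at baseline in L4 alone, and the baseline of L5 was far below the other horses. HOXC10, by contrast, was at 4.55 to 4.97 on day 14 in all 5, against 3.76 to 5.32 at baseline, where L5 was the highest.

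**Figure D4:**
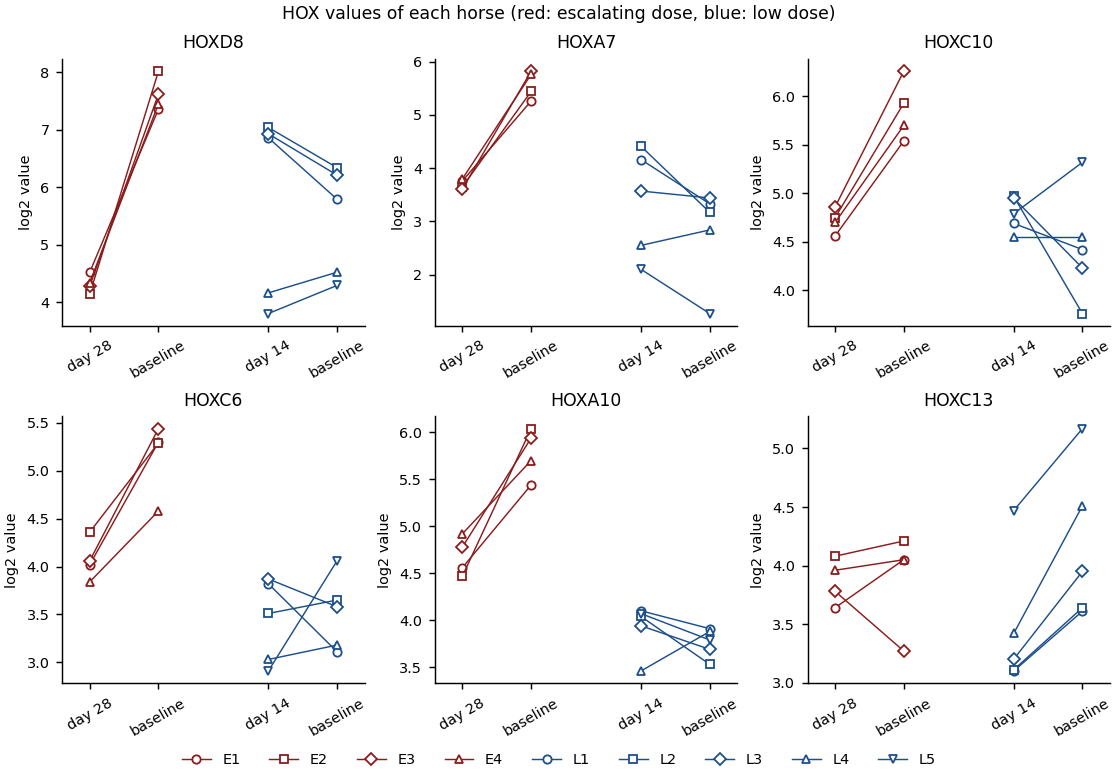
Log2 value of 6 HOX genes in each horse, day 28 and baseline at the escalating dose (red, 4 horses) and day 14 and baseline at the low dose (blue, 5 horses), with a line joining the arrays of a horse. All red lines of HOXD8, HOXA7, HOXC10, HOXC6 and HOXA10 are lower on day 28, the blue HOXD8 lines part into L1 to L3 at 5.79 to 7.04 and L4 and L5 at 3.80 to 4.52, and the blue HOXC13 lines are all lower on day 14.

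The change at the escalating dose was then tested against that at the low dose in all 18 arrays. It was lower for 11 HOX genes and higher for 1 (38.7% of the 31 in either direction). Of all probesets 16.9% were called lower, 19.7% higher and 36.6% in either direction. Of all genes with a symbol of their own 25.0% were lower and 18.3% higher. The median difference of the 31 was -0.30, against 0.10 for all probesets and -0.04 for all such genes. HOXD8 differed by -3.62 (SE 0.36, limma adjusted p = 4.9e-05), HOXA7 by -2.41 (SE 0.32, limma adjusted p = 0.00021) and HOXA10 by -1.26 (SE 0.25, limma adjusted p = 0.0025). HOXC10, HOXA9, HOXA6, HOXC6 and HOXD9 were also among the 11, as were HOXD10 (-0.95, SE 0.31), HOXB3 (-0.93, SE 0.32) and HOXC11 (-0.67, SE 0.23), which were not called within the escalating dose. HOXA5, called there, was not called here (-0.92, SE 0.33, limma adjusted p = 0.051). HOXD8, HOXA7 and HOXA10 kept their call under all 19 alternatives, and HOXC10 and HOXA9 lost it in 1 each. The calls of the other 6 were less stable: HOXC6 lost its call in 10 of 19 alternatives, HOXD9 in 9 of 19, HOXA6 in 8 of 19, HOXC11 in 8 of 18, HOXD10 in 6 of 19 and HOXB3 in 5 of 18, mostly with 1 horse left out. The gene that was higher was HOXC13 (0.69, SE 0.23, limma adjusted p = 0.040), whose change was -0.03 at the escalating dose and -0.72 at the low dose. It lost its call in 11 of 19 alternatives, among them without L4 and L5 (limma adjusted p = 0.097).

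The partners of HOX proteins gave calls in both directions at the escalating dose. Of 7 measured TALE cofactors (PBX, MEIS and PKNOX proteins, which bind DNA with HOX) 3 were higher and 1 lower. PBX2 was at 4.04, 4.20, 4.75 and 3.86 on day 28, against 6.42, 6.99, 7.22 and 6.75 at baseline, and all day 28 arrays were far below all baseline arrays (change -2.63, SE 0.15). MEIS1 and PBX3 were higher, by 0.67 (SE 0.15) and 0.74 (SE 0.18). Of 17 Polycomb genes, which keep HOX clusters silent, 9 were lower and 1 higher, with RNF2, the ubiquitin ligase of the complex, at -1.54 (SE 0.17), EZH1, a histone methyltransferase, at -1.08 and RBBP7 at -0.87. Of 11 Trithorax genes and H3K27 demethylases, which keep them active, 8 were lower and 0 higher, among them the methyltransferases KMT2D at -1.75 (SE 0.15) and ASH1L at -1.22, and ASH2L at -1.27. Before the first dose 8 of the 17 Polycomb genes and 9 of the 11 genes of the Trithorax list were above the 75th percentile, where 73.8% of all genes were called lower, against 28.4% of genes at any signal. The medians of these lists were 0.17, -0.49 and -1.04. After quantile normalization, median centring or cyclic loess, 1, 0 or 1 TALE cofactors were higher and 2, 3 or 2 lower, 7, 11 or 5 Polycomb genes were lower, and 8, 11 or 5 of the Trithorax list.

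Upstream and neighbouring genes were mixed. Among all genes with a symbol of their own 28.4% were lower and 21.9% higher at the escalating dose. Of 14 retinoid and caudal genes, which set HOX boundaries in the embryo, 3 were lower, and these were the retinoid X receptors RXRA (-1.54), RXRG (-0.94) and RXRB (-0.68). Of 10 limb field genes 3 were higher and 2 lower: FGF10, a limb bud growth factor, changed by 1.19 (SE 0.14), the hindlimb factor PITX1 by 0.89 (SE 0.21) and TBX15 by -0.96 (SE 0.21). Of 12 genes lying beside the HOX clusters in mammals 6 were lower and 3 higher. MTX2, beside HOXD, was at -1.87 (SE 0.22), CBX5, beside HOXC, at -1.80 and CALCOCO2, beside HOXB, at -1.22, although no HOXB gene was called. The 3 higher were SNX10 (1.23) and SKAP2 (1.04), beside HOXA with 5 of 7 genes lower, and SKAP1 (0.74), beside HOXB. Of 36 other homeobox genes 7 were lower and 3 higher, with PRRX1, a factor of limb connective tissue, at -1.33 (SE 0.19), LBX1, of limb muscle precursors, at -1.05 and IRX2 at -0.76. After quantile normalization, median centring or cyclic loess 15, 16 or 15 of these were lower, against 32.8%, 42.8% or 25.0% of all genes with a symbol of their own. Of the retinoid and caudal genes 7, 7 or 5 were then lower, and of the genes beside the clusters 5, 7 or 3 were lower and 2, 2 or 2 higher. Of the limb field genes 1, 2 or 1 were lower and 1, 1 or 1 higher. At the low dose 0 genes of these 7 lists were called in limma, with 0 to 3 per list at an unadjusted p under 0.05, and their medians were between -0.15 and 0.30.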

How the data were processed

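Muscle RNA of 9 horses was hybridized to 18 equine gene arrays (EquGene-1.0-st). The authors made the deposited log2 values by RMA in Affymetrix Expression Console, per the labels and their methods, and used Transcriptome Analysis Console 3.0 to filter genes. Versions of the first and the set of arrays normalized together are not given in the sources used here. RMA equalizes arrays that are normalized together and can hide or create shifts shared by many genes. As deposited, the day 28 and baseline arrays of the escalating dose differed in median and spread. Arrays have no read depth, and the number of horses limits the precision.

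Values were analysed as deposited in R 4.3.3 with limma 3.58.1. Gene symbols came from the platform annotation: 16789 probesets had 1 symbol, 343 several and 13427 none. HOX members, gene lists and marker lists were chosen with earlier results of these data known. The 2 regimens were fitted separately, with a block for the horse (same animal, from the labels), and the difference of changes on all arrays. Residuals of same-horse arrays correlated at -0.02 to 0.12 in the escalating dose and 0.42 to 0.70 in the low dose. The best match was the same horse for E2, L3, L4 and L5, and another horse for E1, E3, E4, L1 and L2. A probeset was called at an adjusted p under 0.05 over 30559 probesets, or 30558 where 1 missing value dropped a probeset. The fits were tested on simulated data. All members are named, with values per horse for at least the 3 called members of smallest p in each direction. Other lists give up to 3 genes of smallest p, with those called higher added for the genes beside the clusters. Markers stand where they accompany a HOX result. Alternatives were the scaling, a brightness filter, variance models, array weights, the horse block, the methods' paired test, the set of arrays or probesets fitted, and left-out horses.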

Additional observations from a re-analysis of the deposited data

Results flagged for a closer look

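The change at the escalating dose differed from that at the low dose for 12 HOX genes in the test of the difference itself. This was 38.7% of the 31, against 36.6% of all probesets. The difference was -3.62 for HOXD8, -2.41 for HOXA7, -1.47 for HOXC10, -1.26 for HOXA10, -0.99 for HOXC6, -0.95 for HOXD10, -0.93 for HOXB3, -0.91 for HOXA6, -0.87 for HOXA9, -0.74 for HOXD9, -0.67 for HOXC11 and 0.69 for HOXC13 (log2). HOXD8, HOXA7 and HOXA10 kept their call under every alternative run, HOXC10 and HOXA9 lost it in 1, and the other 7 lost it in 5 to 11. Dose, day, horses and array scale differ between the regimens together and cannot be told apart.

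In 15 of 124 groups of HOX values the highest or lowest horse was set off from the others by most of the group's range, where chance gives about 1 in 20 in independent groups, and these groups share arrays. L5 accounted for 6. On day 14 of the low dose it was high for HOXB9 (3.97) and HOXC13 (4.47), and at baseline it was low for HOXA7 (1.27) and high for HOXD1 (2.79), HOXD3 (2.58) and HOXD11 (4.32). L4 was low for HOXA10 (3.46) and high for HOXC11 (3.43) on day 14. On day 28 of the escalating dose E2 was at 3.26 for HOXD11, where the other 3 horses were at 3.27, a gap of the last decimal of the deposited values. At the escalating dose baseline, E3 was low for HOXB1 (4.32), HOXB2 (4.03) and HOXC13 (3.27), and E4 was low for HOXB6 (3.31), HOXB7 (3.89) and HOXC9 (4.42). The arrays of L4 and L5 also had less spread than the other low dose arrays, and the part of this in their HOX values was not tested.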

How the results depend on the processing

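At the escalating dose HOXD8, HOXA7, HOXC10, HOXA10, HOXC6 and HOXA9 stayed lower and called under every alternative in which they were tested (15 or 16 each), HOXD9 lost its call in 1, HOXA5 in 3 and HOXA6 in 8, and no called gene turned its direction. The count of 9 lower genes became 15 after quantile normalization, 17 after median centring and 14 after cyclic loess, and 7 to 9 with each horse left out. The cause was not tested. The methods' paired test called 1 gene higher (HOXC12) in place of 0. For the difference of changes, the count of 11 lower became 17 after median centring and 6 without the horse block, and 6 to 11 with each horse left out. The 1 gene called higher became 0 after quantile normalization, median centring, cyclic loess, without the block and without L4 and L5 (added after the data were seen), and 0 to 1 with each horse left out. The block changed no other count of calls by over 1.5 times: without it 10 genes were lower at the escalating dose, 8 of them among the 9. At the low dose 0 HOX genes were called under every alternative. The 50% brightness filter left 11 HOX genes to test at the escalating dose, of which 7 were lower. Choosing the dimmest probeset of a gene gave no other value, because each HOX gene had 1. The calls of genes with small changes depended on the scaling at the escalating dose, and those of the difference also on single horses and the block.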
